A study of Mus musculus with 11 samples.

Results

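The GATA transcription factors Gata1, Gata2, Gata3, Gata4, Gata5 and Gata6 were followed by name through 2 RNA libraries and 6 lists of histone mark peaks from the developing mouse kidney and from embryonic stem cells. They are 6 of the 21189 protein-coding genes with a value in the RNA table. They were taken by name as the members of the gene family, and the rule used no measured value. The choice was made with earlier results of these data known. Ureteric Gata3 was set against the other 5.

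GATA factors bind DNA sequences with the core GATA through a pair of zinc fingers. Gata1, Gata2 and Gata3 are best known from blood lineages, and Gata4, Gata5 and Gata6 from heart, gut and other mesoderm and endoderm derivatives. In the kidney, Gata3 acts in the nephric duct and its outgrowth, the ureteric bud, downstream of Pax2 and Pax8 and upstream of the receptor gene Ret. H3K4me3 is a histone mark found at active or poised promoters, and H3K27me3 is laid down by Polycomb repressive complex 2 at silenced developmental genes.

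The study compared chromatin and RNA of nephron progenitors with those of ureteric epithelium and stem cells. Chromatin came from 3 populations. Cap mesenchyme, the nephron progenitors, was sorted as Cited1-RFP+ cells at E18.5 from mice with the genotype Cited1nuc-TagRFP-T, of (C57BL/6 x DBA)F1 origin and bred on to C57BL/6J (N5). Ureteric epithelium, the future collecting duct tree, was sorted as Hoxb7-GFP+ cells at E15.5 from Hoxb7myr- Venus/+ mice of (C57BL/6J x CBA/J)F2 origin, also kept on C57BL/6J. The stem cells were the wild-type line E14, strain 129/Ola, at passage 15. RNA came from metanephric mesenchyme and ureteric epithelium (called ureteric bud here), both dissected manually at E11.5 from C57BL/6 wild-type embryos. The RNA is therefore 4 to 7 days younger than the sorted kidney cells, the 2 sorts depend on the cells that switch on the Cited1 and Hoxb7 reporters, and the stem cells are 1 line. Each group held 1 sample, so no value has a replicate error, no test could be made, and differences below describe these samples.

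Marker genes bore out most labels, but the marks in ureteric epithelium did so only in part. RNA levels are in FPKM, fragments scaled by transcript length and library size, and a gene was called 4-fold higher at a log2(FPKM + 1) difference of 2 or more, if the higher library reached 2 FPKM. By this rule all 6 ureteric markers were higher in ureteric bud RNA, where 2.18% of protein-coding genes were called. In metanephric mesenchyme RNA 5 of 6 cap mesenchyme markers were higher (0.944% of genes). The exception, Cited1, read 2.78 FPKM in metanephric mesenchyme and 8.34 FPKM in ureteric bud. The mesenchyme library also held stroma, whose 6 markers summed to 233 FPKM against 2.65 FPKM in ureteric bud. At pluripotency genes, 5 of 5 starts carried H3K4me3 without H3K27me3 in stem cells, against 0 in cap mesenchyme and 1 in ureteric epithelium. Over all protein-coding genes the shares in this state were 56.8%, 58.1% and 53.6% in the same order. The same state was found at 3 of 6 ureteric markers in ureteric epithelium and 2 in cap mesenchyme. In ureteric epithelium Wnt11 had both marks, Wnt9b had H3K27me3 alone, and Hoxb7, the gene of the sorting reporter, had neither. Of the 6 cap mesenchyme markers, 6 had this state in cap mesenchyme and 3 in ureteric epithelium. The read depth behind the lists and the RNA table is unknown. The lists held between 12879 and 144362 peaks, and in bulk samples fewer cells of a type and less RNA per cell cannot be told apart.

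The promoters at the centre of the results differ in base content, and 4 are shown for the comparison of CG-rich with CG-poor starts. Each is the 250 bases before an annotated start from RefSeq (GRCm38.p6, the same as mm10), read 5′ to 3′ on the gene's strand, with CG pairs in capitals. Gata3 lies on the minus strand (chr2:9878601-9878850), both Gata2 promoters on the plus strand (outer, chr6:88193641-88193890, and inner, chr6:88198414-88198663) and Gata1 on the minus strand (chrX:7967911-7968160).
Gata3: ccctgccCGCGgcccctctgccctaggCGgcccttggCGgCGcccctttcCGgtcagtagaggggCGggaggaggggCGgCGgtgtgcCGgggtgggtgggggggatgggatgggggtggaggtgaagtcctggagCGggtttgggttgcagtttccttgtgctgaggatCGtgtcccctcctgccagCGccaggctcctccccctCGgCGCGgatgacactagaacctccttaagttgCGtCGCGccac
Gata2 inner: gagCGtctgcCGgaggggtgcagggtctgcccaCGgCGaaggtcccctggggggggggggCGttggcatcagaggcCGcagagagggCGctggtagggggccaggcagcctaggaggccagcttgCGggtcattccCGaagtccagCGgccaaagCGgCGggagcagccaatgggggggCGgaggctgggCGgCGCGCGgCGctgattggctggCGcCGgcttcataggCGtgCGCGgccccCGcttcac
Gata2 outer: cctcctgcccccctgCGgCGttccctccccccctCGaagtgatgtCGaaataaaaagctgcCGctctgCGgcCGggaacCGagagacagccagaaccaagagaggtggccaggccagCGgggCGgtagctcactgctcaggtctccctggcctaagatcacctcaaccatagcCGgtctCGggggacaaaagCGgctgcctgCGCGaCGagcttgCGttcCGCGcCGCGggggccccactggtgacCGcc
Gata1: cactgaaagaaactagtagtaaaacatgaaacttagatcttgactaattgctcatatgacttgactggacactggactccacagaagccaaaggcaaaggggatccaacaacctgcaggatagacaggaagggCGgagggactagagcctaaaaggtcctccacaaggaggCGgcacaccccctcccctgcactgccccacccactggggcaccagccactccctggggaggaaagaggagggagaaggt
The promoter table matched 4 of the 6 genes, with 5 starts (Gata5 has 1). Gata3 had 19 CG pairs, the inner Gata2 promoter 24, the outer one 22, Gata5 22 and Gata1 2, against a median of 6 over 32851 promoters. The motif AGATAA, its relative AGATAG, and likewise TGATAA or its relative TGATAG, each searched on both strands, occurred in 0 of the 5, while 26.5% of all promoters of this length held at least 1 of them. This says only that these letters are not in these windows.

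Gata3 was the most abundant family member in ureteric bud and close to silent in metanephric mesenchyme. Its level, the sum of its RefSeq transcripts, was 40.8 FPKM in the ureteric bud library and 0.529 FPKM in the metanephric mesenchyme library. The difference on the log2(FPKM + 1) scale was -4.77 for mesenchyme minus bud. This scale shrinks the differences of genes at low levels. It placed Gata3 above 95.9% of protein-coding genes in ureteric bud and above 48.9% in metanephric mesenchyme. Gata3 was the 1 member of 6 that was 4-fold higher in ureteric bud, where 2.18% of the 21189 protein-coding genes were called. None of the 6 was called higher in metanephric mesenchyme, where 0.944% of genes were. Of the 6, 3 reached 2 FPKM in either library (Gata2, Gata3 and Gata6), and among the 9719 genes that did, 4.74% were called higher in ureteric bud and 2.06% in metanephric mesenchyme.

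The Gata3 level depends on which transcripts are counted. The main curated transcript (3215 bp) read 38.1 FPKM in ureteric bud, with the authors' deposited interval from 31.2 to 44.9, and 0.000218 FPKM in metanephric mesenchyme, from 0 to 0.0448. A predicted transcript of 3224 bp with the same start read 55.0 FPKM (46.9 to 63.1) and 0.978 FPKM (0.433 to 1.52), and its accession was not in the reference table used, so it was joined by position alone. With it, Gata3 came to 95.7 FPKM in ureteric bud and 1.51 FPKM in metanephric mesenchyme, a difference of -5.27. These intervals are the authors' for 1 sample each and hold no spread between samples. A shorter form of 2146 bp made up most of the accession-joined level in metanephric mesenchyme (0.492 FPKM, 0 to 1.25) and was listed at 0 in ureteric bud.

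**Figure D1:**
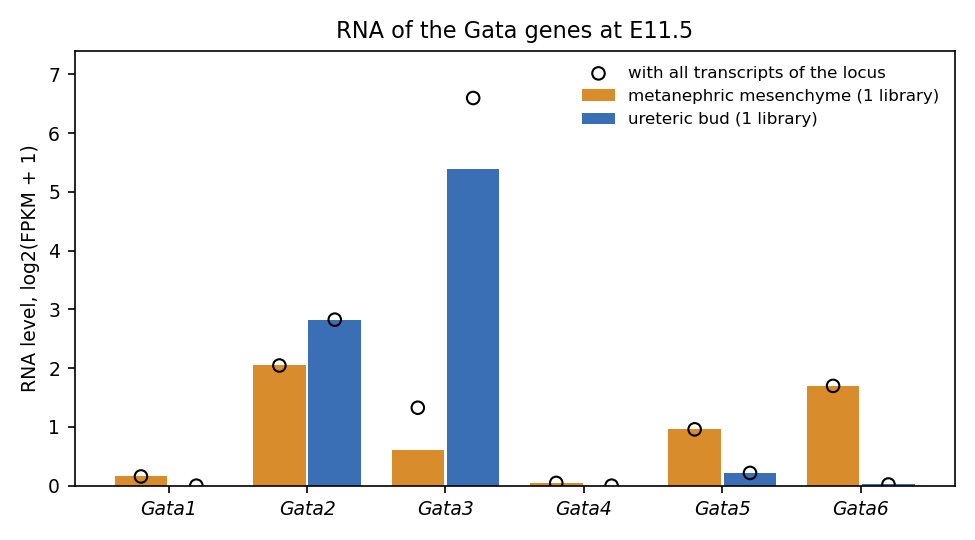
RNA level on a log2(FPKM + 1) axis for the 6 Gata genes, with 1 bar for the metanephric mesenchyme library and 1 for the ureteric bud library, and open circles for the level with all transcripts of the locus. Gata3 in ureteric bud (40.8 FPKM) stands above every other bar, and Gata2 is above 3 FPKM in both libraries.

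Gata2, a regulator of blood stem cells and of endothelium, was read in both tissues. It measured 6.09 FPKM in ureteric bud (authors' interval 4.94 to 7.23) and 3.13 FPKM in metanephric mesenchyme (2.35 to 3.90). The difference of -0.78 falls short of the 4-fold rule. Over the 9180 protein-coding genes at 1 FPKM or more in both libraries the median difference was -0.46, and relative to that median Gata2 differed by -0.32.

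Gata6, a factor of endoderm, heart and smooth muscle, had the opposite order to Gata3. Its level was 2.24 FPKM in metanephric mesenchyme and 0.0140 FPKM in ureteric bud, a difference of 1.68. Its 2 main transcripts read 0.871 FPKM (0.381 to 1.36) and 1.37 FPKM (0.796 to 1.95, marked as low data by the authors) in metanephric mesenchyme. Gata6 was not called, but it was with a pseudocount of 0.1 (4.36). It was also called relative to the median of the genes at 1 FPKM or more in both libraries (2.14). The call therefore rests on these choices. The same rescaling changed the calls over all genes from 200 for metanephric mesenchyme and 461 for ureteric bud to 314 and 293.

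The remaining members were near the bottom of the scale. Gata5, a factor of heart and gut, read 0.943 FPKM in metanephric mesenchyme and 0.162 FPKM in ureteric bud. Gata1, the erythroid regulator, read 0.115 FPKM in metanephric mesenchyme and was listed at 0 in ureteric bud. Gata4, which acts in heart and gonad, read 0.0330 FPKM and 0 in the same order. In metanephric mesenchyme the order was Gata2, Gata6, Gata5, Gata3, Gata1 and Gata4, with Gata3 (1.51 FPKM) ahead of Gata5 once the position-joined transcript is counted. In ureteric bud Gata3 and Gata2 made up 86.7% and 12.9% of the family's 47.0 FPKM, and in metanephric mesenchyme Gata2 and Gata6 made up 44.7% and 32.1% of 6.99 FPKM. With the position-joined transcript the family came to 102 FPKM in ureteric bud, 93.9% of it Gata3 and 5.97% Gata2, and to 7.97 FPKM in metanephric mesenchyme, where Gata2, Gata6 and Gata3 made up 39.2%, 28.2% and 18.9%.

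Markers of red cells, endothelium and sympathetic neurons summed to more in metanephric mesenchyme. Gata6, Gata5, Gata1 and Gata4 were also higher there, while Gata3 and Gata2 were higher in ureteric bud. Red cell markers summed to 139.9 FPKM in metanephric mesenchyme and 15.2 FPKM in ureteric bud, nearly all from the embryonic globins Hbb-y (74.5 and 10.9 FPKM) and Hba-x (61.6 and 4.02 FPKM), while the globins Hba-a1 and Hba-a2 were listed at 0 in both. Endothelial markers summed to 30.9 and 3.35 FPKM, with 3 of 6 called 4-fold higher in metanephric mesenchyme (0.944% of all genes) and 0 of 6 listed at 0. Sympathetic neuron markers summed to 6.96 and 1.07 FPKM, and among them Hand2, Th and Dbh were listed at 0 in ureteric bud. Endoderm markers summed to 0.568 and 0.0706 FPKM, of which Sox17 alone read 0.518 and 0.0275 FPKM. Of these 6 markers 0 reached 1 FPKM in either library, and their median difference was 0. The part of these cells in the levels of Gata1, Gata2, Gata4, Gata5 and Gata6 was not tested.

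At the outermost annotated starts, 5 of the 6 genes had H3K27me3 within 1 kb in each of the 3 populations. The mark was within that window at Gata2, Gata3, Gata4, Gata5 and Gata6 in each, and at Gata1 in none. The start base itself lay outside the mark for Gata5 and Gata6 in cap mesenchyme and for Gata2 and Gata4 in stem cells. With a window of 0.5 kb these calls were lost, except that of Gata6. A mark was called where a deposited peak overlapped the start plus and minus 1 kb by at least 1 bp, which held for 7.72% of 21652 protein-coding starts in cap mesenchyme, 11.0% in the ureteric epithelium and 12.0% in stem cells. H3K4me3 was present at 3 starts in cap mesenchyme (Gata2, Gata5, Gata6), 4 in ureteric epithelium (Gata2, Gata3, Gata5, Gata6) and 3 in stem cells (Gata3, Gata5, Gata6), where 64.1%, 60.2% and 68.0% of genes had it. Every one of these H3K4me3 starts also carried H3K27me3. Both marks were at 5.93%, 6.51% and 11.2% of genes in the 3 populations, and in all 3 together at 2.34%, which among the members held for Gata5 and Gata6. In sorted populations both marks at a start need not lie in the same cells.

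**Figure D2:**
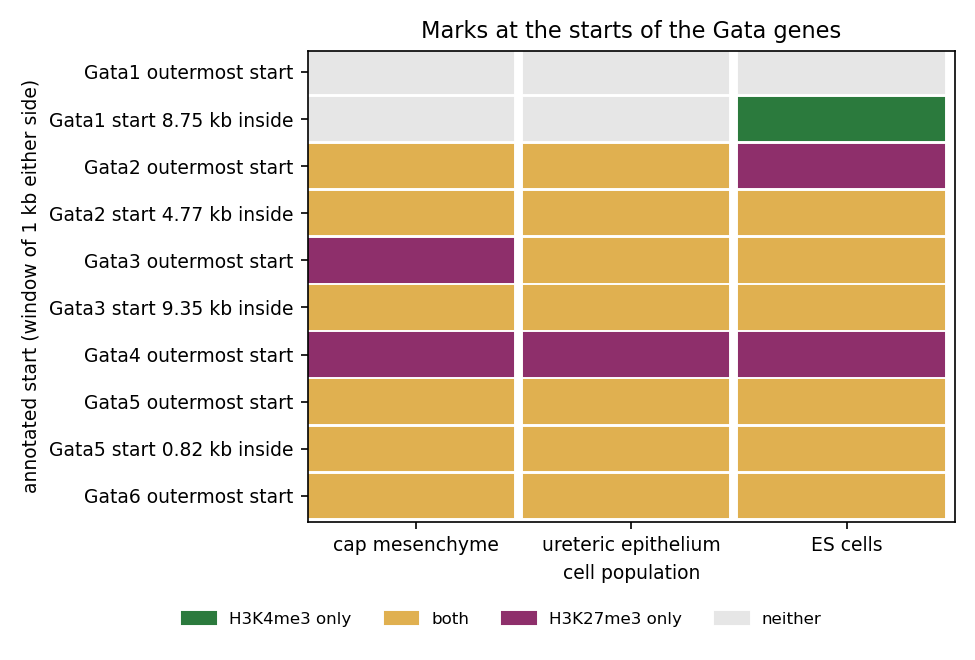
Marks within 1 kb of each annotated start of the Gata genes (rows) in each population (columns), with the colour giving H3K4me3, H3K27me3, both or neither. Gata5 and Gata6 have both marks in their windows in each population, Gata4 has H3K27me3, and the inner and outermost starts of Gata3 and Gata2 differ.

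Gata4 and Gata6 had only an outermost start here, so a dependence on the start could not be seen for them. Among the other members, Gata3 was the one whose marks in the kidney populations depended on which annotated start was taken. The outermost start (chr2, 9887953, minus strand) had H3K27me3 without H3K4me3 in cap mesenchyme, whereas stem cells and ureteric epithelium had the pair. The start in the RefSeq promoter table lies 9353 bp inside the gene at 9878600 and carried both marks in all 3 populations. Its H3K4me3 peak in cap mesenchyme was 1764 bp wide, with an authors' score of 1204.69 that lay above 64.0% of the peaks of that list. At the promoter-table starts, which were chosen after the data were seen, Gata2, Gata3 and Gata5 carried both marks in all 3 populations. Gata6 has no start in that table, and its outermost start carried both marks in all 3.

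Ureteric Gata3 ranked first of the 6 in the width and score of its H3K4me3. A single peak of 22440 bp (chr2, 9868564 to 9891003) covered both starts, and it was the second widest (rank 2) of 23958 peaks in the list, whose median width was 1547 bp. Its score of 2245.41 lay above 97.1% of the list. The widest H3K4me3 peak on another member in ureteric epithelium was 5990 bp, at the inner start of Gata2 (rank 214, score above 87.5% of the list). Gata6 followed with 3627 bp (above 54.8%) and Gata5 with 1619 bp (above 15.9%), and Gata1 and Gata4 had none. In cap mesenchyme the widest peak on Gata3 was 1764 bp (rank 11936 of 32992), so the order there was led by Gata6 with 3882 bp.

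Within the bounds of that ureteric peak the balance of the marks differed between populations. H3K4me3 peaks covered 23.8% of the bases in cap mesenchyme, 100% in the ureteric epithelium and 62.2% in stem cells. H3K27me3 peaks covered 93.8%, 69.8% and 74.4% of the same bases. The bounds come from the ureteric H3K4me3 peak itself, so its 100% is no finding. Within the ureteric list alone, the median H3K27me3 peak of the stretch scored above 93.2% of the peaks.

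H3K27me3 peaks left a gap at the inner Gata3 start in ureteric epithelium. A stretch of 2151 bp without the mark ran from position -1971 to 179 bp relative to it, and 41.0% of the window of 1 kb either side lay under peaks, against 50.7% in stem cells and 78.0% in cap mesenchyme. The corresponding longest gap within 2.5 kb was 441 bp in cap mesenchyme and 1237 bp in stem cells. Longer stretches without the mark lay at the outermost Gata5 start in cap mesenchyme (3243 bp) and at that of Gata4 in stem cells (3238 bp). Both ran to the edge of the 2.5 kb searched, whereas the ureteric Gata3 gap had peaks on both sides. In ureteric epithelium the outermost Gata5 start had 1097 bp, also cut by that edge. Gata2, Gata4 and Gata6 had 326 bp or less there, and Gata1 had no H3K27me3. At the outermost Gata3 start 95.4% of the ureteric window lay under H3K27me3.

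**Figure D3:**
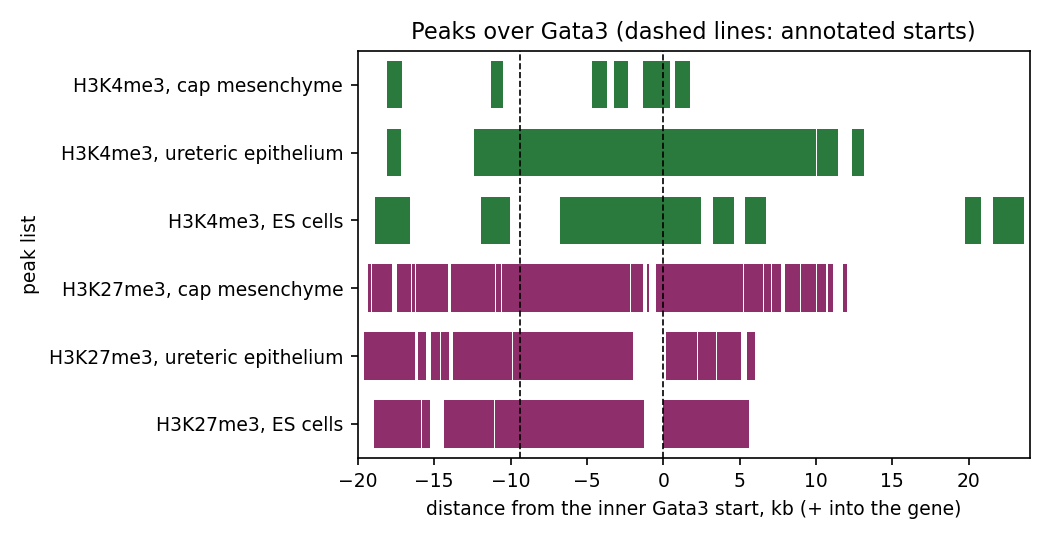
Peaks of the 6 lists along Gata3, drawn as blocks by distance in kb from the inner start with positive values into the gene, and dashed lines at both annotated starts. The ureteric H3K4me3 block spans 22440 bp over both starts, and the ureteric H3K27me3 track is empty for 2151 bp around the inner one.

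Gata2 (chr6, 88193891 to 88207032, plus strand) has annotated starts 4773 bp apart, and the stem cells separated them. The inner start carried both marks in all 3 populations. The outer start carried both in cap mesenchyme and ureteric epithelium, but H3K27me3 without H3K4me3 in stem cells, although it has 22 CG pairs and 99.5% of the 6482 promoters with at least 19 pairs had H3K4me3 there. In ureteric epithelium the inner H3K4me3 peak scored 1248.5 and the outer one 78.8, above 87.5% and 17.8% of the list. In cap mesenchyme the best scores were 397.87 and 289.9, above 48.3% and 43.6%. The difference of stem cells from the kidney populations at the outer start depended on the setting. With the upper 50% of peaks by score all 3 had H3K27me3 alone there, and with a window of 2.5 kb all 3 had both marks. H3K27me3 over Gata2 in cap mesenchyme formed a peak of 9908 bp, rank 12 by width of 108394, against 5920 bp in ureteric epithelium.

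**Figure D4:**
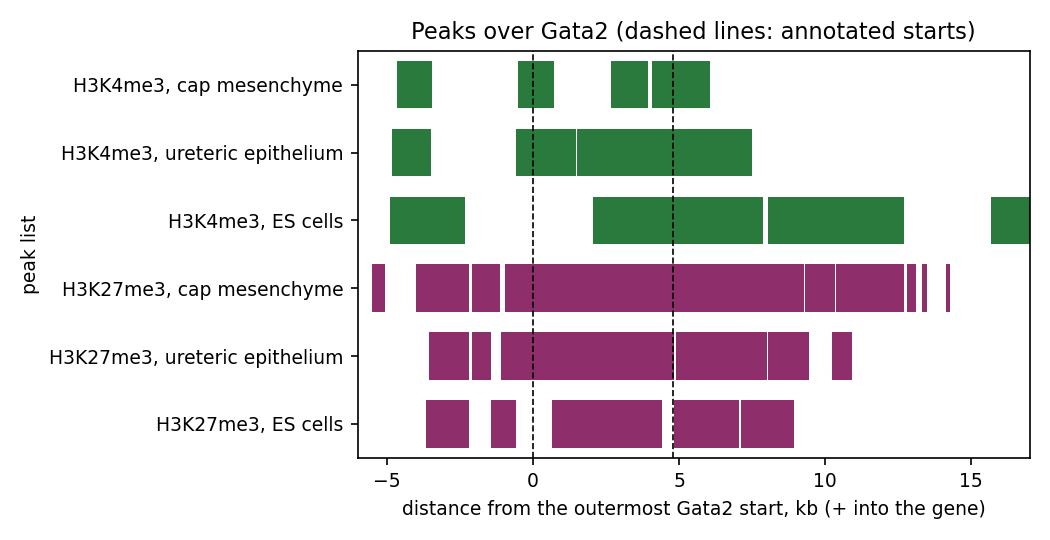
Peaks of the 6 lists along Gata2 by distance in kb from the outermost start, with dashed lines at both annotated starts. In stem cells no H3K4me3 block touches the outer start, and in cap mesenchyme 1 H3K27me3 block of 9908 bp covers both.

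Gata5 and Gata6 had both marks within 1 kb of the start in all 3 populations. Gata6 kept both in each population under every alternative run. Gata5 did not. In cap mesenchyme H3K27me3 covered 11.4% of its window, and the call was lost with a window of 0.5 kb, with lists cut to equal length and with 50% cover, where neither mark was called. Ureteric H3K4me3 at Gata5 was lost with 50% cover or the upper 50% of peaks by score, and the H3K4me3 of stem cells with lists of equal length. The Gata6 H3K4me3 peak measured 3882 bp in cap mesenchyme and 3627 bp in ureteric epithelium, and 5980 bp in stem cells. Within the cap mesenchyme list the H3K4me3 peaks of Gata6 and Gata5 scored above 64.7% and 63.0% of peaks, and within the ureteric list above 54.8% and 15.9%. Gata4 (chr14, 63198914 to 63271712) had H3K27me3 without H3K4me3 in its start window in each population, but its body held H3K4me3 peaks in cap mesenchyme (3.02% of bases) and stem cells (15.4%). In stem cells H3K27me3 covered 13.1% of its start window, against 100% in both kidney populations.

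Gata1 (chrX, 7959260 to 7976663) was the member with no H3K27me3 anywhere in its body in the 3 populations. Its promoter-table start, 8753 bp inside the outermost one, carried H3K4me3 in stem cells (1090 bp, score 80.3, above 19.0% of the list) and neither mark in the kidney populations. Of the 9536 promoters with at most 2 CG pairs, as Gata1 has, 8.80% had H3K4me3 in cap mesenchyme, 6.89% in the ureteric epithelium and 14.1% in stem cells. With at least 19 pairs, as in the other 4 promoters matched, the shares were 99.3%, 96.4% and 99.5%.

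Over the gene bodies, H3K27me3 covered more of Gata2 than of any other member in each population, at 98.6% of bases in cap mesenchyme, 76.3% in the ureteric epithelium and 59.4% in stem cells. For Gata3 the cover was 62.4%, 41.0% and 44.5%, and for H3K4me3 14.9%, 69.8% and 42.2%. Gata3 was the member with the highest H3K4me3 cover in ureteric epithelium, ahead of Gata2 with 56.7%. In the other 2 populations Gata2 led, with 30.3% in cap mesenchyme and 79.9% in stem cells. With the upper 50% of peaks by score its cover in cap mesenchyme was 0%, and Gata5 led there with 17.7%. Gata4 had 46.2%, 53.2% and 29.7% of its bases under H3K27me3, and Gata5 and Gata6 between 17.4% and 31.2%. The median protein-coding gene had 0% under H3K27me3 in each population.

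**Figure D5:**
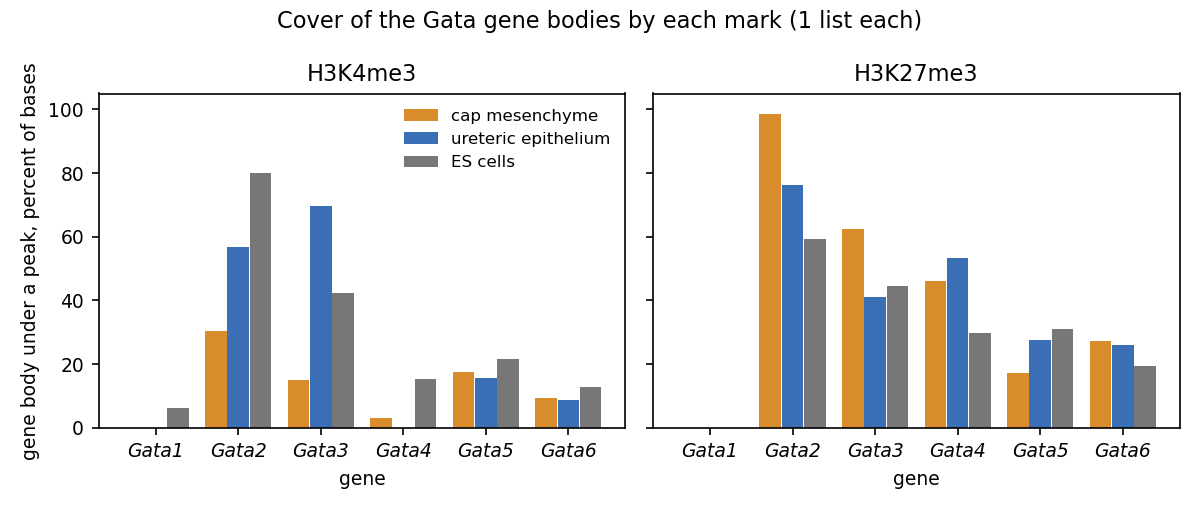
Percent of gene-body bases under H3K4me3 peaks and under H3K27me3 peaks for each Gata gene, with 1 bar per population. Gata3 reaches 69.8% under H3K4me3 in ureteric epithelium and 14.9% in cap mesenchyme, and Gata2 reaches 98.6% under H3K27me3 in cap mesenchyme.

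Noncoding genes beside Gata3 had the same order of RNA. 9230102O04Rik, on the Gata3 strand, read 18.7 FPKM in ureteric bud and 0.0646 FPKM in metanephric mesenchyme, a difference of -4.21. 4930412O13Rik, on the opposite strand, read 7.77 and 0.312 FPKM, a difference of -2.74. Their reference spans overlap each other and the first part of Gata3, and how strand was used in the authors' counting is not given in the sources used here, so reads may be split between them uncertainly. Beside Gata6, Gata6os read 0.624 FPKM in metanephric mesenchyme and was listed at 0 in ureteric bud, and Gata5os read 0.0459 FPKM and 0.

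By the pattern of marks at the outermost start, 5 protein-coding genes matched Gata3 in all 6 lists, and their RNA did not follow 1 direction. The transcription factor genes Tfap2b, Fev and Tfap2a passed the level of 2 FPKM in ureteric bud that the rule for naming sets, so their direction is partly fixed by it. Tfap2b read 0.221 FPKM in metanephric mesenchyme and 13.2 FPKM in ureteric bud (-3.54). Fev read 0.0233 and 10.03 FPKM (-3.43), and Tfap2a 0.107 and 121 FPKM (-6.79). The other 2, named after their values were seen, were Pdgfra, a growth factor receptor of stroma, at 25.8 FPKM in metanephric mesenchyme and 0.456 FPKM in ureteric bud (4.20), and Gm36079, listed at 0 in both.

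Of the genes known to work beside Gata3 in the ureteric lineage, 13 of 15 were 4-fold higher in ureteric bud (2.18% of all genes) and 0 in metanephric mesenchyme (0.944%). The median difference was -3.85, against -0.48 over the 10952 protein-coding genes at 1 FPKM or more in either library. The list was drawn up for the ureteric lineage, so its direction is no independent finding. Ret, the receptor of the branching signal Gdnf, read 72.8 FPKM in ureteric bud and 0.341 FPKM in metanephric mesenchyme. Emx2 read 225 and 1.43 FPKM, and Lhx1 18.4 and 0.0532 FPKM. The 2 not called were Pax2 (24.6 and 9.53 FPKM) and Pax8 (4.57 and 0.609 FPKM), which are also used by nephron progenitors and their descendants. In stem cells 12 of the 15 carried both marks at the start (11.2% of all genes). In ureteric epithelium 5 of the 15 had both, as Gata3 did (Gfra1, Wnt11, Tfap2a, Tfap2b and Sox9), while 9 had H3K4me3 without H3K27me3, Ret, Lhx1 and Emx2 among them, and 1, Wnt9b, had H3K27me3 alone. Over all genes the first 2 states made up 6.51% and 53.6%.

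Among 7 GATA cofactors, 1 was 4-fold higher in metanephric mesenchyme and 0 in ureteric bud, where 0.944% and 2.18% of all genes were called, with a median difference of 0.32. That gene was Zfpm2 (Fog2), a partner of Gata4 to Gata6, at 5.89 FPKM in metanephric mesenchyme and 0.218 FPKM in ureteric bud. Its start had H3K4me3 without H3K27me3 in cap mesenchyme, and H3K27me3 joined it in stem cells and ureteric epithelium. Zfpm1 (Fog1), a partner of Gata1, read 13.6 FPKM in ureteric bud and 3.35 FPKM in metanephric mesenchyme (-1.75), short of the rule. Lmo2, a blood and endothelial bridging protein, read 0.544 and 2.59 FPKM in the same order.

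The 5 other genes with GATA-type zinc fingers were not called in either direction (median difference -0.60). Trps1 read 3.83 FPKM in metanephric mesenchyme and 6.32 FPKM in ureteric bud, Gatad2a 19.6 and 37.4 FPKM, and Gatad1 15.1 and 24.4 FPKM. At the outermost start, 4 of the 5 had H3K4me3 without H3K27me3 in both kidney populations and 5 of 5 in stem cells, a state that 58.1% of all genes had in cap mesenchyme, 53.6% in the ureteric epithelium and 56.8% in stem cells. It was found at 0 of the 6 Gata genes, but in stem cells at Gata1 with any annotated start, and in cap mesenchyme at Gata5 with a window of 0.5 kb or lists of equal length. A level of 1 FPKM in either tissue was reached by 10952 of the 21189 protein-coding genes. Of 11 listed genes that GATA factors control in blood, nerve, heart and gut, 0 reached it. That count holds for this choice of genes: the embryonic globins Hbb-y and Hba-x and also Dbh (2.24 FPKM in metanephric mesenchyme, listed at 0 in ureteric bud) and Alas2 (1.78 and 0.228 FPKM) are not on the list.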

How the data were processed

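The authors' deposited peak lists and RNA table were used as given. Per the submitters' processing notes, Bowtie2, MACS, TopHat, Cufflinks and Cuffdiff were used with mm10. Versions, settings and how many libraries each list or column holds are not given in the sources used here. RNA values are the FPKM of the authors' Cuffdiff table with its intervals, and transcripts were summed per gene after a join on RefSeq accession (76.8% of 138486 transcripts). Each peak has the score of the authors' deposited list, whose meaning is not given in the sources used here, so it ranks peaks within 1 list. The transcript length is also as deposited by the authors.

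The call of 4-fold needs a log2(FPKM + 1) difference of 2 and 2 FPKM. A mark needs 1 bp of a peak within 1 kb of the outermost RefSeq start, and strand came from the promoter table or the order of loci (same in 24308 of 24308 genes). Genes were named by rule: the 6 members, listed genes at 1 FPKM or more in either tissue, and up to 5 genes most like Gata3. Columns of other samples not used numbered 0, and the 3 input libraries were not analysed here. Members and lists were chosen with earlier results of these data known. Python 3.11.15, NumPy 2.4.6, pandas 2.3.3 and Matplotlib 3.10.9 were used, and the functions were tested on simulated data. Alternatives were the pseudocount, the transcript join, a rescaling to the median, the window, the overlap, the start, a score filter and lists cut to equal length by score.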

Additional observations from a re-analysis of the deposited data

How the results depend on the processing

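With 1 sample per group, each value describes 1 sample. No paired analysis was possible because each group holds 1 sample. Of 87 alternative values for the main results, 72 stayed near the reported value and 15 moved; none changed direction. With a pseudocount of 0.1 the Gata3 RNA difference was -6.02, and 1 member (Gata6) was 4-fold higher in metanephric mesenchyme, as it was (1) after rescaling. H3K4me3 starts numbered 2 in ureteric epithelium when the upper 50% of peaks by score were kept, and the Gata3 body cover by H3K4me3 in cap mesenchyme was then 5.71%. In stem cells they numbered 5 with a window of 2.5 kb, any annotated start or the promoter-table starts. The last setting was chosen after seeing the data and used the outermost start for Gata4 and Gata6, absent from the promoter table. Under the same 3 settings Gata3 had 2 marks in cap mesenchyme. With a window of 0.5 kb or a cover of 50% of the window, H3K27me3 starts in stem cells numbered 3, and Gata3 had 1 mark there (H3K27me3). Joining peaks within 1 kb widened ureteric Gata3 to 25524 bp. Depth is unknown, so a missing peak or an FPKM of 0 does not show absence. The cause of these shifts was not tested.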

Other observations

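Stretches of transcription matched to no reference transcript lay inside the ureteric H3K4me3 peak of Gata3, all on its strand by the order of loci. Those at chr2 9879276 to 9879641, 9880106 to 9880510 and 9880624 to 9880855 lay within the Gata3 body, between its annotated starts. The one at 9889686 to 9890069 lay before the outermost start. Whether they are separate from Gata3 RNA was not tested. The 4 were between 232 and 405 bp long and read 6.87 to 28.3 FPKM in ureteric bud, 64.2 FPKM in sum, against 1.06 FPKM in metanephric mesenchyme, where 3 of 4 were listed at 0. They were singled out after their values were seen. At endothelial marker genes, 5 of 6 starts carried H3K4me3 without H3K27me3 in sorted ureteric epithelium and 0 of 6 in cap mesenchyme (53.6% and 58.1% of all protein-coding starts), beside the H3K4me3 of Gata2 in both. The part of endothelial cells in the Gata2 marks was not tested.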
